A study of Sus scrofa with 6 samples.

Results

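Glycolysis, the pathway that splits glucose into pyruvate, was followed in follicles from the ovaries of prepubertal gilts, which are young female pigs, through 10 genes: the glucose transporter SLC2A1, the enzymes HK1, GPI, PFKM, ALDOA, PGK1, ENO1 and PKM, and the lactate dehydrogenase subunits LDHA and LDHB. Every probe set of the Affymetrix porcine array was taken whose platform annotation gives 1 of these symbols and no other. This found 10 probe sets for 9 of the 10 genes, out of 6765 genes with such a probe set on the array. No probe set carried the symbol ALDOA, so aldolase A was not analysed here. The sample titles name 3 follicle stages, primordial, middle and last, which the study separated by diameter and appearance. No treatment is labelled, and 2 arrays per stage are numbered as biological replicates. The titles do not give follicle diameters, animal ages or whether follicles of several gilts were pooled, so the p-values cover no more than the spread between the 2 arrays of a stage. A description attached to all 6 samples calls them primordial, and the stage names here rest on the titles.

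Glucose enters cells through facilitative transporters, is trapped by phosphorylation and is converted stepwise to pyruvate, which is either reduced to lactate or passed to mitochondria. In the ovary, granulosa cells are known as strongly glycolytic, while the oocyte uses glucose poorly and takes up pyruvate made by the cells around it. Lactate dehydrogenase is a tetramer of A and B subunits. The A form is commonly associated with lactate production and the B form with the use of lactate.

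The arrays had been scaled by the authors to a common mean, and median probe set signals ranged from 119.3 to 169.9 in array units. Differences are given as log2(signal + 16) ± the standard error of a limma fit over all 6 arrays, with n = 2 per stage and Benjamini-Hochberg adjustment over 14399 tested probe sets. Of the 10 probe sets of the glycolysis genes, 9 passed the filter on dim probe sets, 1 for each of the 9 genes. The remaining PKM probe set had signals of 12.2 and 42.9 on the primordial arrays, 42.3 and 24.0 in middle follicles and 31.4 and 71.5 in last follicles, and no difference of it passed without the filter (adjusted p = 0.432 to 0.763). The stage medians of all tested probe sets were not equal: middle minus primordial had a median difference of 0.22, last minus primordial one of 0.14 and last minus middle one of -0.07. Of the probe sets called, 62.7%, 59.7% and 42.3% were higher in these 3 comparisons, against 47.5%, 47.4% and 54.8% after centring every array on its own median.

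The labelled stages were checked against marker genes. The 10 oocyte markers on the array summed to 493 and 459 on the primordial arrays, 20027 and 21758 in middle follicles and 882.3 and 881.5 in last follicles. Primordial follicles contain an oocyte by definition, yet the arrays labelled primordial had the lowest sum. The oocyte sums go against that title, so primordial names the title below and not a shown stage. The 10 granulosa markers summed to 33428 and 45841 on the primordial arrays, 9969 and 14671 in middle follicles and 53753 and 48058 in last follicles. The 11 leukocyte markers summed to 46037 and 39870.2 on the primordial arrays, 3774 and 2903 in middle follicles and 3989 and 9846 in last follicles. They were therefore highest on the primordial arrays, while PTPRC, which encodes the leukocyte common antigen CD45, lay between 21.0 and 56.5 on all 6 arrays, below the filter on dim probe sets. In follicle RNA of this kind, fewer cells of a type and less RNA per cell cannot be told apart.

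The glycolysis genes were mostly brightest on the arrays labelled primordial, with SLC2A1 and LDHA the furthest above the arrays labelled middle and last. limma's F-test over the 3 stages called 6 of the 9 genes at an adjusted p under 0.05, against 50.3% of all tested probe sets. The 6 were SLC2A1, GPI, PFKM, PGK1, ENO1 and LDHA. HK1, PKM and LDHB did not pass (adjusted p = 0.174, 0.166 and 0.401). PGK1 passed narrowly, at an adjusted p of 0.0499. Without middle replicate 1 the test called 3 genes.

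**Figure D1:**
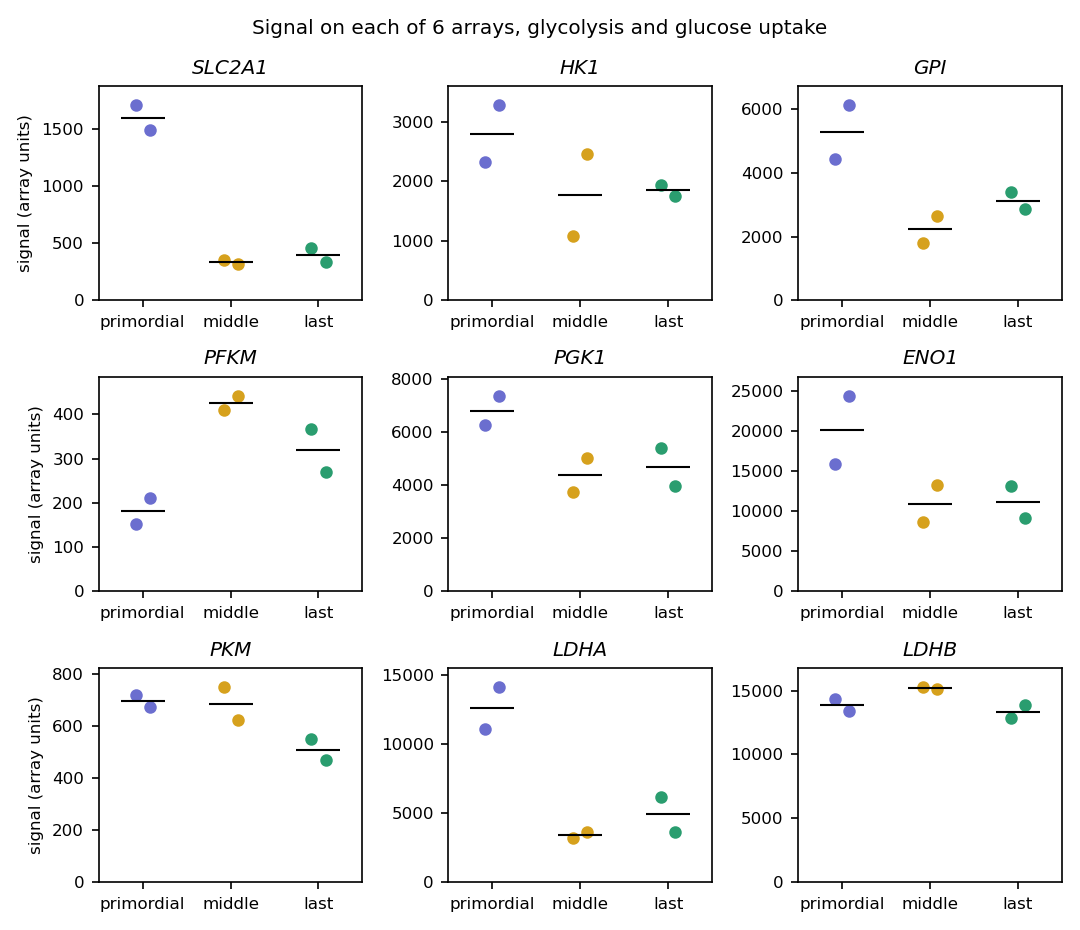
Signal in array units (linear axes that start at 0) of the tested probe set of each of 9 genes on 6 arrays, 2 for each stage; points are arrays and bars are stage means. SLC2A1 and LDHA had their highest signals on the primordial arrays, PFKM had its lowest there, and the LDHB signals lay between 12840.1 and 15236.

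SLC2A1 encodes GLUT1, the widely expressed transporter of basal glucose uptake. Its signal was 1709 and 1492 on the primordial arrays, 351 and 317 in middle follicles and 462 and 340.2 in last follicles. Both primordial arrays stood far above the other 4, and the middle and last arrays overlapped. The middle arrays were 4.61-fold lower than the primordial arrays, a difference of -2.21 ± 0.23 (adjusted p = 8.97e-05). Last minus primordial was -1.97 ± 0.23 (adjusted p = 0.000381), or 3.91-fold lower. Last minus middle was 0.24 ± 0.23 (adjusted p = 0.503), with a 95% interval of -0.27 to 0.75.

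HK1, hexokinase 1, phosphorylates glucose on entry. It had 2323 and 3273 on the primordial arrays, 1079.9 and 2454 in middle follicles and 1940.2 and 1754 in last follicles. The middle arrays differed from each other by more than the stage means did, and they overlapped both other stages. The difference of -0.75 ± 0.34 between middle and primordial arrays did not pass (adjusted p = 0.095). It passed without middle replicate 2, at -1.34 (adjusted p = 0.00891), and after centring of the arrays on their medians, at -0.99 (0.0389), in a range of 0.00891 to 0.647 over 15 alternatives.

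GPI, glucose-6-phosphate isomerase, makes fructose 6-phosphate. Its signal was 4424 and 6101 on the primordial arrays, 1805 and 2652 in middle follicles and 3381 and 2865 in last follicles. The 3 stages did not overlap, with the middle arrays lowest. Middle minus primordial was -1.24 ± 0.23 (adjusted p = 0.00226) and last minus primordial -0.74 ± 0.23 (0.037). Last minus middle, at 0.51 ± 0.23, did not pass (0.171).

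PFKM, the muscle-type subunit of phosphofructokinase, the enzyme of the committed step, ran the other way. It had 152.0 and 211 on the primordial arrays, 411 and 441 in middle follicles and 367 and 271 in last follicles. All 3 stages were apart, with the primordial arrays lowest. PFKM rose in the middle arrays by 1.18 ± 0.26 (adjusted p = 0.0052), which was 2.26-fold. Its difference between last and primordial arrays was 0.76 ± 0.26 (adjusted p = 0.0485), a call that ended under 13 of 15 alternatives (adjusted p = 0.0389 to 0.248), including the removal of any 1 array except last replicate 2.

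PGK1, phosphoglycerate kinase, carries out the first step that yields ATP. Its signal was 6278 and 7344 on the primordial arrays, 3762 and 5022 in middle follicles and 5417 and 3962 in last follicles. The middle and last arrays overlapped below the primordial arrays. Middle minus primordial was -0.64 ± 0.21 (adjusted p = 0.0296), and last minus primordial was -0.55 ± 0.21 (0.0684), which did not pass. The first call was lost under 6 of 15 alternatives, among them leaving out primordial replicate 1 or 2 or middle replicate 1, with -0.75 (0.0574), -0.53 (0.161) and -0.43 (0.204) in a range from 0.00759.

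ENO1, alpha-enolase, makes phosphoenolpyruvate. It had 15901 and 24256 on the primordial arrays, 8593 and 13219 in middle follicles and 13172 and 9133 in last follicles. Here too the middle and last arrays overlapped below the primordial arrays. Middle minus primordial was -0.88 ± 0.26 (adjusted p = 0.0218) and last minus primordial was -0.84 ± 0.26 (0.036). These calls were lost under 5 and 4 of 15 alternatives. The first was lost with quantile normalization (-0.56, adjusted p = 0.111). Both were lost with no filter and with no intensity trend. Without primordial replicate 2, the brightest array for this gene, the differences were -0.58 (adjusted p = 0.158, in a range of 0.00772 to 0.193) and -0.54 (0.229, in a range of 0.0219 to 0.229). Without middle replicate 1 the first was -0.57 (0.193), and without last replicate 2 the second was -0.58 (0.164).

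PKM encodes pyruvate kinase, which forms pyruvate. Its brighter probe set had 721 and 672 on the primordial arrays, 748 and 624 in middle follicles and 549 and 469.8 in last follicles. The last arrays were lowest and did not overlap the others, but no difference passed. Last minus middle was -0.42 ± 0.21 (adjusted p = 0.209) and last minus primordial was -0.44 ± 0.21 (0.136). Middle minus primordial was -0.03 ± 0.21 (0.927), with an interval of -0.50 to 0.45.

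LDHA encodes the A subunit of lactate dehydrogenase. Its signal was 11134 and 14101 on the primordial arrays, 3209 and 3621 in middle follicles and 6199 and 3636 in last follicles. The 3 stages were apart, although the lower of the last arrays lay only just above the middle arrays. LDHA fell in the middle arrays by 1.87 ± 0.24 on the log2 scale (adjusted p = 0.000309), to a signal 3.66-fold lower. Last minus primordial was -1.40 ± 0.24 (adjusted p = 0.00274). Last minus middle was 0.48 ± 0.24 (0.21). Without last replicate 2 this difference was 0.86 and passed (0.0221, in a range of 0.0221 to 0.811).

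LDHB encodes the B subunit. It had 14303 and 13399 on the primordial arrays, 15236 and 15103 in middle follicles and 12840.1 and 13838 in last follicles. The middle arrays were the highest by a small margin, and the primordial and last arrays overlapped. Middle minus primordial was 0.13 ± 0.12 (adjusted p = 0.399), with a 95% interval of -0.14 to 0.41. The intervals were -0.33 to 0.22 for last minus primordial (0.761) and -0.46 to 0.09 for last minus middle (0.323). With quantile normalization middle minus primordial passed at 0.42 (0.00986, in a range of 0.00986 to 0.717), as did last minus middle at -0.43 (0.021, in a range of 0.021 to 0.694). Centring of the arrays on their medians turned middle minus primordial to -0.11. The RefSeq gene table lists 2 pig genes under the symbol LDHB, and signal from the copies cannot be told apart in this probe set.

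The within-array difference of LDHA and LDHB was compared between stages, a measure chosen after the values were seen. Centred on the mean of all 6 arrays, it was 0.90 and 1.33 (log2) on the primordial arrays, -0.98 and -0.80 in middle follicles and 0.21 and -0.66 in last follicles. The primordial arrays did not overlap the other 4. Relative to LDHB, LDHA averaged -0.89 ± 0.13 in the middle arrays and 1.12 ± 0.31 in the primordial arrays (SD, n = 2 each), a difference of -2.01. The last arrays, at -0.23 ± 0.62 (SD, n = 2), differed from the primordial arrays by -1.34. With 2 arrays against 2, an exact two-sided permutation test cannot go below p = 0.333, which each of these comparisons gave.

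**Figure D2:**
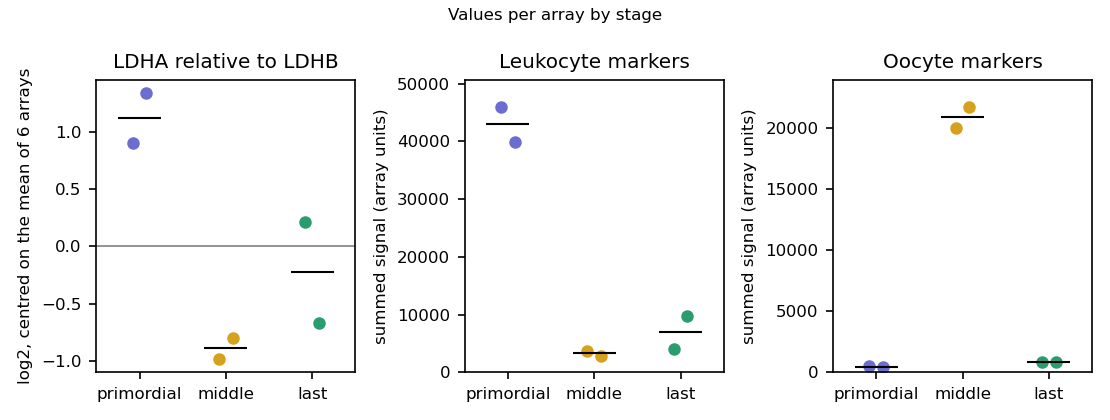
Left, log2 signal of LDHA relative to LDHB on each array, centred on the mean of 6 arrays; middle and right, summed signal in array units of 11 leukocyte markers and of 10 oocyte markers on axes from 0. Points are arrays, 2 for each stage, and bars are means; the LDHA to LDHB balance and the leukocyte sum were highest on the primordial arrays and the oocyte sum on the middle arrays.

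Between middle and primordial follicles, 5 of the 9 genes were lower (SLC2A1, GPI, PGK1, ENO1 and LDHA), against 17.7% of all tested probe sets, and 1 was higher (PFKM), against 29.7%. The median difference of the 9 genes was -0.75, against 0.22 for all tested probe sets. Over the 5432 genes with a tested probe set, each taken once, the median was 0.06, with 22.5% of genes lower and 22.9% higher. The calls of SLC2A1, GPI, PFKM and LDHA stood under all 15 alternatives run for each gene, with adjusted p of at most 0.00257, 0.0285, 0.0418 and 0.00911. Those lower act in uptake (SLC2A1), at the isomerase step (GPI), in the later steps towards pyruvate (PGK1 and ENO1) and at lactate formation (LDHA). The leukocyte markers moved with these calls: 9 of 9 tested were lower in the middle arrays, with a median of -3.51, though 2 of them had middle means under the filter on dim probe sets. The 10 granulosa markers summed to 9969 and 14671 in middle follicles, against 33428 and 45841 in primordial follicles, and of 7 tested 4 were lower, 2 were not called and 1 was higher. The one that rose was AMH, the hormone of growing follicles, at 2.41 ± 0.31 (adjusted p = 0.000289). Stromal fibroblast markers ran opposite, with 5 of 7 tested higher (median 3.82) and none lower, and of 5 smooth muscle markers 3 were higher and 1 lower. Of those higher, 3 stromal markers and the smooth muscle marker CNN1 had primordial means under the filter. The smooth muscle marker that was lower, ACTG2, had its middle mean under it. These passed the filter only through stages where they were brighter. The actin control also moved, its 3′ signal exceeding its 5′ signal by 4.60 ± 0.54 (log2, SD, n = 2) on the middle arrays, against 3.38 ± 0.25 on the primordial arrays. The GAPDH control did not, at 3.04 ± 0.35 on the middle arrays, against 3.06 ± 0.53 on the primordial arrays. The part of leukocyte, granulosa, stromal and smooth muscle cell RNA and of RNA quality in the glycolysis differences was not tested.

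Between last and middle follicles, none of the 9 genes was called by limma, where 7.29% of all tested probe sets were higher and 9.94% were lower. None had an unadjusted p under 0.05 either. The differences ran from -0.42 for PKM to 0.51 for GPI, with a median of 0.09 against -0.07 for all tested probe sets and 0.03 for all genes taken once. HK1 (0.18 ± 0.34), PGK1 (0.09 ± 0.21) and ENO1 (0.04 ± 0.26) lay near 0, and PFKM was at -0.41 ± 0.26 (adjusted p = 0.759, 0.799, 0.933 and 0.304). With quantile normalization 1 gene was called (LDHB), and without last replicate 2 another 1 (LDHA). The standard errors of 0.12 to 0.34 set the size of change that could be seen.

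Between last and primordial follicles, 4 of the 9 genes were lower (SLC2A1, GPI, ENO1 and LDHA), against 13.4% of all tested probe sets, and 1 was higher (PFKM), against 19.8%. The median was -0.58, against 0.14 for all tested probe sets and 0.06 for all genes taken once, of which 15.8% were lower and 17.2% higher. HK1 was at the median with a standard error of 0.34 and did not pass (adjusted p = 0.223). SLC2A1 and LDHA stood under all 15 alternatives, with adjusted p of at most 0.00466 and 0.0256. The GPI call was lost under 6, with -0.51 and an adjusted p of 0.240 without primordial replicate 2 (range from 0.0206), -0.86 and 0.0578 without last replicate 1, and -0.62 and 0.129 without last replicate 2. Leukocyte markers were again lower, 9 of 9 tested, with a median of -2.18. Higher were 6 of 7 stromal fibroblast markers (median 4.65), 5 of 6 theca markers (3.71) and 5 of 5 smooth muscle markers (3.33). Of those higher, 3 stromal fibroblast, 2 theca and 2 smooth muscle markers had primordial means under the filter on dim probe sets. They passed it through the later stages, so these counts and medians lean towards higher. The excess of 3′ over 5′ signal of the GAPDH control was 1.88 ± 0.02 on the last arrays, against 3.06 ± 0.53 on the primordial arrays (log2, SD, n = 2 each). The other controls did not share this drop. Actin was at 3.733 ± 0.235 against 3.384 ± 0.246, and EF1A at 0.76 ± 0.09 against 0.84 ± 0.24. The part of these cell types and of RNA quality in the glycolysis differences was not tested. These comparisons share arrays: the primordial ones serve 2 of the 3 comparisons.

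**Figure D3:**
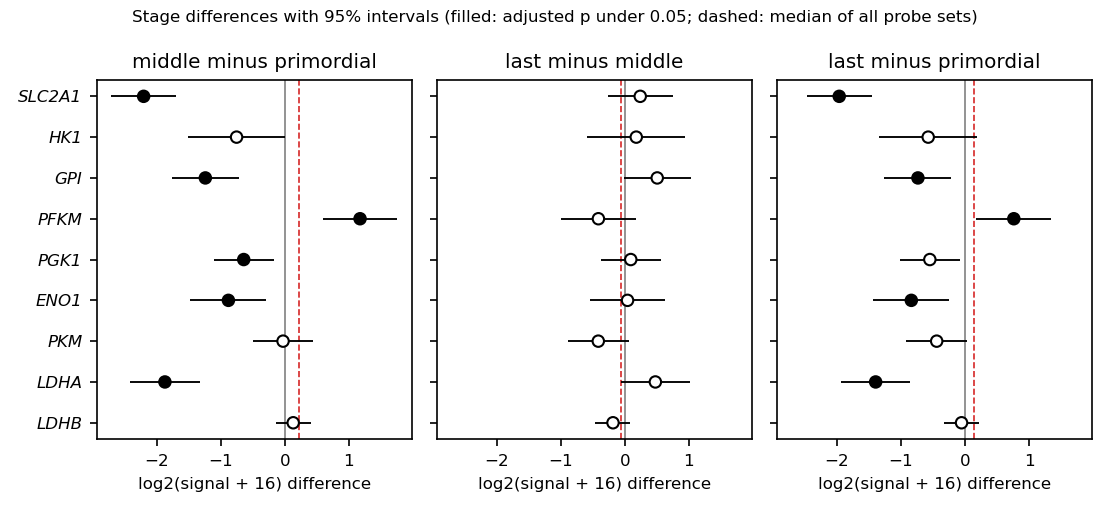
Differences in log2(signal + 16) for 9 genes in pathway order and 3 stage comparisons, with 95% intervals; filled points have an adjusted p under 0.05, the grey line marks 0 and the dashed line marks the median of all tested probe sets. In middle minus primordial 5 genes were called lower and PFKM higher, and in last minus middle all 9 points are open.

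The arrays of a stage also differed from each other across the genes. Of the 9 genes, 8 were higher on last replicate 1 than on last replicate 2, with LDHB the exception, and the median difference was 0.42 against -0.012 over all tested probe sets. On the primordial arrays 6 of 9 were higher on replicate 2, with a median of -0.34 for replicate 1 minus replicate 2, against -0.006 over all tested probe sets. On the middle arrays 6 of 9 were higher on replicate 2, with a median of -0.17 against -0.003. The excess of the 3′ over the 5′ GAPDH signal was larger on replicate 1 of the primordial and middle arrays (3.43 and 3.29) than on replicate 2 (2.69 and 2.79), and was 1.90 and 1.86 on the last arrays. The actin excess was larger on replicate 1 in each stage, at 3.56, 4.98 and 3.90 against 3.21, 4.21 and 3.57 (primordial, middle and last). So was that of EF1A, at 1.015, 1.34 and 0.825 against 0.67, 0.87 and 0.70. The part of these control differences in the gene values was not tested.

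Among the other glucose transporters 7 of 12 listed genes were on the array and 3 were tested. In the middle arrays 2 of the 3 were lower than in the primordial arrays, against 22.5% of all genes. SLC2A5, among these 2, was tested only because of its primordial signals. In the last arrays 2 of the 3 were higher than in the middle arrays, against 8.8% of all genes. SLC2A3, GLUT3, a high-affinity transporter, had 5953 and 6295 on the primordial arrays, 762 and 799 in middle follicles and 3489 and 3696 in last follicles. It was at -2.95 ± 0.16 in middle minus primordial (adjusted p = 4.98e-06). It rose in the last arrays relative to the middle arrays by 2.18 ± 0.16 (4.7e-05), beside 0.24 ± 0.23 for SLC2A1, though the difference of these 2 changes was not tested. SLC2A5, a fructose transporter, had 438 and 413 on the primordial arrays, 53.5 and 41.4 in middle follicles and 11.6 and 57.8 in last follicles. It passed the filter on dim probe sets through the primordial arrays alone, and its middle and last signals lay under the filter, so no fold is given. SLC2A8, found mainly on intracellular membranes, rose in the last arrays relative to the middle arrays by 0.78 ± 0.22 (0.0413).

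Of 19 other glycolysis enzymes listed, 10 were tested. In the middle arrays 6 were lower than in the primordial arrays and 2 higher, with a median of -0.67. Of all genes 22.5% were lower and 22.9% higher. LDHC, among the 2 higher, was tested only because of its middle signals. LDHC, the lactate dehydrogenase subunit best known from the testis, stood apart. It had 18.2 and 23.6 on the primordial arrays, 390.0 and 275 in middle follicles and averaged 32.7 ± 3.82 in last follicles (SD, n = 2). It passed the filter through the middle arrays alone, with the other 4 arrays under it, so no fold is given. The 9 tested oocyte markers were likewise higher in the middle than in the primordial arrays and lower in the last than in the middle arrays, 7 of them with primordial means under the filter. The part of oocyte RNA in the LDHC signal was not tested. BPGM, which makes 2,3-bisphosphoglycerate, was at -1.94 ± 0.26 in middle minus primordial (adjusted p = 0.000358). ENO2, gamma-enolase, known from neurons, was at -1.13 ± 0.33 (0.0212).

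Isoforms of 1 step did not all move one way. These genes were chosen after their values were seen. At the phosphofructokinase step PFKL, the liver-type subunit, was at -0.76 ± 0.26 in middle minus primordial (adjusted p = 0.038), while PFKM was higher. PFKP, the platelet type, was at -0.45 ± 0.28 and did not pass (0.222). At the enolase step ENO3, the muscle type, was higher in the middle arrays by 0.86 ± 0.29 (0.0375), against the decreases of ENO1 and ENO2. HK3, a hexokinase of myeloid cells, was at -1.40 ± 0.39 (0.0164), against -0.75 ± 0.34 for HK1. GAPDH, often used as a reference gene, was lower in the middle arrays for each of its 3 tested probe sets, at -0.58 ± 0.15, -0.91 ± 0.26 and -0.94 ± 0.27 (adjusted p = 0.011, 0.0191 and 0.0174).

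Pathways that branch from glycolysis were described from further lists. All 4 tested pentose phosphate genes of 8 listed were lower in the middle arrays than in the primordial arrays, with a median of -1.35. Of all genes 22.5% were lower, and their median was 0.06. RPIA, ribose 5-phosphate isomerase, was at -1.81 ± 0.21 (adjusted p = 0.000178), TALDO1, transaldolase, at -1.37 ± 0.24 (0.00143) and PGD, 6-phosphogluconate dehydrogenase, at -1.33 ± 0.29 (0.0051). TALDO1 was higher in the last than in the middle arrays by 0.80 ± 0.24 (0.0471), the only 1 of the 4 called there. In that comparison 8.8% of all genes were higher.

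For transport of lactate and pyruvate, 4 of 8 listed genes were tested, and 2 were lower in the middle arrays, against 22.5% of all genes. SLC16A3, the lactate exporter MCT4, had 366 and 959 on the primordial arrays, 67.0 and 103 in middle follicles and 286 and 152 in last follicles. Its difference was -2.62 ± 0.45 (adjusted p = 0.00146) for middle minus primordial, with the middle mean under the filter. MPC1, a subunit of the mitochondrial pyruvate carrier, was at -0.47 ± 0.16 (0.0353). MPC2, its partner, was higher in the last than in the middle arrays by 0.72 ± 0.17 (0.0189).

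The pyruvate dehydrogenase list, of the complex that turns pyruvate into acetyl-CoA, had 6 genes tested. In the middle arrays 2 of the 6 were higher, near the 22.9% of all genes that were, and none was lower, with a median of 0.43 against 0.06 for all genes. PDP2, a phosphatase that activates the complex, rose by 1.41 ± 0.31 (adjusted p = 0.00505) and DLD, its E3 subunit, by 0.60 ± 0.17 (0.0162). PDHA1, the E1 alpha subunit, was at -0.52 ± 0.21 and did not pass (0.0666). None of the 6 was called in the other 2 comparisons.

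In glycogen metabolism 2 of 6 tested genes were lower in the middle arrays, against 22.5% of all genes. They were PYGL, liver-type glycogen phosphorylase, at -0.76 ± 0.18 (adjusted p = 0.00697) and PGM1, phosphoglucomutase, at -0.64 ± 0.19 (0.0222). GYG1, glycogenin, was at -0.29 ± 0.21 (0.284). Of 3 gluconeogenesis genes tested none was called in middle minus primordial. PC, pyruvate carboxylase, was lower in the last than in the middle arrays, at -1.26 ± 0.29 (0.0185). FBP2, at 0.88 ± 0.33, and PCK2, at 0.15 ± 0.37, were not called there (0.0967 and 0.821). PFKFB4, the only tested gene of 5 listed phosphofructokinase regulators, was at -0.32 ± 0.25 in middle minus primordial (0.306).

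**Figure D4:**
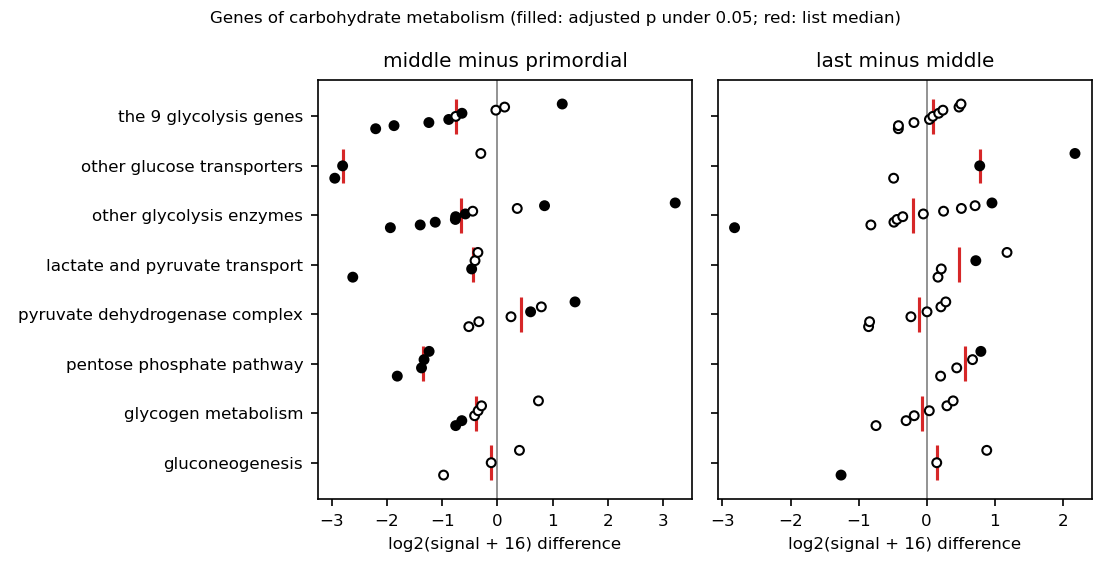
Differences in log2(signal + 16) of tested genes, 1 probe set per gene, in 8 groups of carbohydrate metabolism for middle minus primordial (left) and last minus middle (right); filled points have an adjusted p under 0.05 and red bars are group medians. In the left panel all 4 pentose phosphate genes are called lower, and the isolated high point is LDHC, which was under the filter outside the middle arrays.

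Several glycolysis genes are known targets of the hypoxia-inducible factor and of MYC, so a list of 18 genes of that response was set beside them. Of 12 tested 5 were lower and 2 higher in the middle arrays than in the primordial arrays, with a median of -0.43, against 22.5% and 22.9% of all genes. The 2 that were higher, named here after their values were seen, were CA9, a carbonic anhydrase, at 1.73 ± 0.32 (adjusted p = 0.00212), with primordial signals under the filter, and TXNIP, an inhibitor of glucose uptake, at 1.07 ± 0.22 (0.0036). MYC, a transcription factor of growth, had 4508 and 4278 on the primordial arrays, 621 and 566 in middle follicles and 570.2 and 505 in last follicles. It was at -2.86 ± 0.19 in middle minus primordial (adjusted p = 1.14e-05) and was 7.98-fold lower in last than in primordial follicles (2.29e-05). As for SLC2A1, the primordial arrays alone were high. ANGPTL4, a hypoxia-induced inhibitor of lipoprotein lipase, was at -3.50 ± 0.24 and ADM, adrenomedullin, at -3.87 ± 0.32 in middle minus primordial (1.43e-05 and 2.95e-05). Both rose in the last arrays relative to the middle arrays, by 1.39 ± 0.24 and 3.45 ± 0.32 (0.00489 and 0.000143). In last minus middle 4 of the 12 were higher and none lower, against 8.8% and 7.23% of all genes. HIF1A, also named after its values were seen, was lower in middle minus primordial on both tested probe sets. The brighter was at -0.75 ± 0.14 (adjusted p = 0.00227), the dimmer, with its middle mean under the filter, at -0.90 ± 0.32 (0.0426). In last minus middle they rose by 0.62 ± 0.14 (0.0171) and 1.59 ± 0.32 (0.00967). VEGFA, named after its values were seen, had probe sets that disagreed. Its brightest was at 0.49 ± 0.19 (adjusted p = 0.0591) in middle minus primordial, and 2 others were at -2.62 ± 0.23 and -3.09 ± 0.28 (4.14e-05 and 4.94e-05).

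The genes most like SLC2A1 and LDHA were ranked by Pearson's r of log2(signal + 16) over the 6 arrays. These arrays fall into 3 stages and share their scaling, so r describes likeness only. For SLC2A1 the nearest were the probe sets annotated to AMELX, EIF3B, GPNMB, CEBPG and RIN3, with r between 0.995 and 0.999. AMELX passed the filter on dim probe sets through the primordial arrays alone. It had 2105 and 1335 there, 1.5 and 2.5 in middle follicles and 35.2 and 2.2 in last follicles. GPNMB, a glycoprotein of macrophages and other cells, had 8191 and 6622 on the primordial arrays, 244 and 143 in middle follicles and 336 and 214 in last follicles. For LDHA the nearest were STK24, EZH2, TPP2, GMIP and ATP2A2, with r between 0.992 and 0.998. GMIP lay under the filter on both middle arrays (67.2 and 77.7) and on last replicate 2 (80.3). EZH2, a histone methyltransferase, had 979 and 1149 on the primordial arrays, 326 and 333 in middle follicles and 574 and 396 in last follicles.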

How the data were processed

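RNA of porcine follicles was measured on 6 single-channel arrays of 3 follicle stages. The labels' protocols state that biotinylated cRNA was made from Trizol-extracted total RNA. Per the submitters' processing notes, the software GCOS produced the values, its settings being unstated there. What was deposited are linear intensity values for 24123 probe sets, which the authors had scaled (each array has the same mean of 500.1 once 2% is trimmed at either end). No further normalization was applied. The 124 control probe sets and the 40% of the others with a mean signal under 91.3 were left out, leaving 14399.

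Fits used limma 3.58.1 in R 4.3.3 (eBayes with an intensity trend, two-sided) on log2 of the deposited intensity plus 16, without a replicate block, and called an adjusted p under 0.05. The pseudocount understates folds of dim genes. Figures used Python 3.11.15 and matplotlib 3.10.9. Platform symbols can be old; the gene identifiers of the 9 genes matched the RefSeq gene table under the same symbol, except that of SLC2A1, which the table lists under another identifier. Levels of different genes were not compared, apart from their brightness relative to the filter on dim probe sets.

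The genes and lists were chosen with earlier results of these data known. From each list the text names up to 3 genes with the smallest F-test p, at the brightest probe set of each gene, and 5 genes each as most like SLC2A1 and LDHA. Alternatives were other pseudocounts, filters and normalizations, a replicate block, no intensity trend, a fit of only the 4 arrays compared, the mean of a gene's probe sets, and leaving out each array. Promoter and protein sequences were not used here.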

Additional observations from a re-analysis of the deposited data

How the results depend on the processing

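Each of the 27 gene differences (9 genes in 3 comparisons) was recomputed under 15 alternatives, 405 values in all. Of these 354 kept direction and side of the threshold, 34 lost the call, 7 gained it and 10 changed sign, the last only among differences that had not passed. Where no value is given for a cause, the cause was not tested. In middle minus primordial the number of genes called was 6. It was 4 with no filter, 4 with no intensity trend and 5 with quantile normalization (3 lower and 2 higher), but 7 after median centring. In last minus primordial it was 5, and 2 with no filter, 2 with no intensity trend, 3 with quantile normalization and 2 to 4 with 1 array left out. In last minus middle it was 0, and 1 with quantile normalization and 0 to 1 with 1 array left out. The F-test called 6 genes, and 3 to 6 with 1 array left out. In middle minus primordial 4 genes were called without primordial replicate 2 or middle replicate 1, in last minus primordial 2 without primordial replicate 2 and 3 without last replicate 2, and by the F-test 3 without middle replicate 1. PGK1 gained a call in last minus primordial with each array centred on its median (-0.68, adjusted p = 0.0339) and without last replicate 1 (-0.78, 0.0351). Over all probe sets middle minus primordial had 6821 calls (4356 to 7189 with 1 array left out, the lowest without middle replicate 1), and last minus primordial had 4786 (2730 to 4297, the lowest without primordial replicate 2, and 2900 without primordial replicate 1). Last minus middle had 2481 (727 to 2172, the lowest without middle replicate 1, and 1440 without middle replicate 2).

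Signs changed for PKM in middle minus primordial (0.02 without primordial replicate 1, 0.10 without middle replicate 2) and LDHB (-0.11 with each array centred on its median). In last minus middle they changed for HK1 (-0.41 without middle replicate 1), PGK1 (-0.10 with quantile normalization, -0.12 without middle replicate 1, -0.13 without last replicate 1) and ENO1 (-0.29, -0.27 and -0.22 under the same settings). With 1 array left out these differences ranged over -0.16 to 0.10 for PKM, -0.41 to 0.76 for HK1, -0.13 to 0.32 for PGK1 and -0.27 to 0.35 for ENO1. Replicate numbers do not say that arrays share an animal, and replicate deviations correlated at 0.06 between middle and primordial, -0.05 between last and middle and 0.03 between last and primordial arrays over 14399 probe sets. With a replicate block 6, 0 and 4 genes were called, the PFKM call in last minus primordial being lost (0.76, adjusted p = 0.0659). Precision is limited by having 2 arrays at a stage, and PFKM, the dimmest of the tested genes, lies closest to the filter.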
